A study of Mus musculus with 149 samples.

Results

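The genes of 7 lipid droplet proteins, Hsd17b13, Hsd17b11, Plin2, Plin5, Cideb, Pnpla2 and G0s2, were followed across 149 single cells of mouse liver. They were chosen by name as proteins of the hepatocyte lipid droplet, and their rows are 7 of the 20308 mouse genes in the deposited table. The cells came from 1 wild-type male C57BL/6 mouse of 8 weeks. Hepatocytes, the main cells of the liver, were freed by perfusing the liver with digestion medium, enriched by low-speed spins and captured on Fluidigm C1 chips, microfluidic plates that hold 1 cell per trap. The small chip, with traps of 5 to 10 µm, gave 39 cells, the medium chip, with traps of 10 to 17 µm, gave 30, and the large chip, with traps of 17 to 25 µm, gave 80. No treatment or mutation was compared, and the series title names the recovery of cell position in the hepatic lobule. Because all cells came from 1 animal and each trap size was 1 group of cells from it, cells are not replicates, so the differences below describe these cells and carry no p-value.

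Hepatocytes store triglyceride in lipid droplets, which are covered by a coat of proteins that decides how readily the fat is laid down or broken down. Hsd17b13 and Hsd17b11 encode closely related short-chain dehydrogenases that sit on the droplet, and loss-of-function alleles of HSD17B13 in humans are linked to a lower risk of chronic liver disease. Plin2 and Plin5 encode perilipins of the coat, Cideb encodes a protein of the droplet and of lipoprotein loading, Pnpla2 encodes the triglyceride lipase ATGL, and G0s2 encodes its inhibitor. The liver lobule runs from the portal tract, where blood enters, to the central vein, where it leaves, and hepatocytes near the portal tract (periportal) and near the vein (pericentral) use different sets of genes.

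On mouse build mm10, with gene models from GENCODE M21, Hsd17b13 (ENSMUSG00000034528) lies at chr5:103955440-103977410 and Hsd17b11 (ENSMUSG00000029311) at chr5:103989762-104021919, both on the minus strand. They are neighbours with 12351 bases between them, a gap that holds 1 annotated gene, the processed pseudogene Gm8200. Plin2 (ENSMUSG00000028494) lies at chr4:86648386-86670060, Plin5 (ENSMUSG00000011305) at chr17:56111601-56117596, Cideb (ENSMUSG00000022219) at chr14:55754050-55758458 and G0s2 (ENSMUSG00000009633) at chr1:193272161-193273217, all on the minus strand. Pnpla2 (ENSMUSG00000025509) lies at chr7:141455198-141460743 on the plus strand. Of the exon bases of Cideb, 76.3% (1136 bases) are shared with Nop9 on the opposite strand. Whether strand was used in counting is not given in the sources used here, so reads of that stretch cannot be told apart. Nop9 had a mean value of 7.42 in the large chip, against 460 for Cideb.

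The promoters of Hsd17b13, Hsd17b11 and Plin2 are shown because the neighbouring dehydrogenase genes had different patterns over the cells, while Plin2 shared the direction of Hsd17b13. Each window, from RefSeq on GRCm38.p6, runs 5′ to 3′ on the gene's strand from 250 bases before to 50 bases after the RefSeq start. For Hsd17b13 and Hsd17b11 that start lies inside the 5′ end of the GENCODE model given above. They lie on the minus strand at chr5:103977339-103977638, chr5:104021747-104022046 and chr4:86670010-86670309, in the order Hsd17b13, Hsd17b11, Plin2. Capitals mark matches to the motifs searched.
Hsd17b13: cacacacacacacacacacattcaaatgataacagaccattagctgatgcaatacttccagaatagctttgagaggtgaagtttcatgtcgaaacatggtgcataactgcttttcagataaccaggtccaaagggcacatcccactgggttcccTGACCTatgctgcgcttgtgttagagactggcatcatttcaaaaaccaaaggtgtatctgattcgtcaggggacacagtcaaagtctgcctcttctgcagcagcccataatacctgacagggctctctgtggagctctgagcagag
Hsd17b11: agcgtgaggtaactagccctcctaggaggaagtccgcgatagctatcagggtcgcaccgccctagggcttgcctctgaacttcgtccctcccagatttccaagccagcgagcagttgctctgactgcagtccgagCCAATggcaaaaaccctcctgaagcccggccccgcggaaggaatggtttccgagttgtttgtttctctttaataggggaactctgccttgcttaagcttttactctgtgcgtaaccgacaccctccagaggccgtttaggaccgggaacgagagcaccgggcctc
Plin2: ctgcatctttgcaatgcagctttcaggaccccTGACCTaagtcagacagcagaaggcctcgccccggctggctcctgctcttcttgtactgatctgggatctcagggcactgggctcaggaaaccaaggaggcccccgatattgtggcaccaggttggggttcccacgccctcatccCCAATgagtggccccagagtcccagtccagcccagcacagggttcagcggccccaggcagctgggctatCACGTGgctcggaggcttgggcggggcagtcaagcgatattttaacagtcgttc
The motifs were searched on both strands in 32851 promoter windows of the same length, and all 7 genes had a window. The nuclear receptor half-site AGGTCA, which 16.3% of all windows hold, was in the Hsd17b13 window on the opposite strand, starting 96 bases before the RefSeq start. It was also in the windows of Plin2 and Plin5. The Hsd17b11 window held a CCAAT box (CCAAT, 37.4% of windows), as did those of Plin2 and Plin5. The Plin2 window also held an E-box (CACGTG, 7.15%), and the Cideb window a TATA box (TATAAA, 13.6%). No window of the 7 genes held CTTTGAT (3.73%), CAAAGTCCA (0.475%) or a direct repeat of the half-site with 1 base between (0.0396%), which says only that these letters are not in these windows.

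The values of all genes depend on the chip, and 2 technical features stood apart. ERCC spike-ins, synthetic RNAs added with the lysis mix, took a median of 82.8%, 82.7% and 3.66% of the summed values in the small, medium and large chips. They took 50% or more in 27 small-chip, 23 medium-chip and 16 large-chip cells, and these are called spike-rich here. The remaining 83 cells (12 small, 7 medium and 64 large), called spike-poor, had shares under 50%, and results are given for all cells and for these 83. The median number of genes above 0 per cell was 3087, 2306.5 and 7389.5 in the small, medium and large chips. Every cell had at least 3 of 10 hepatocyte markers above 0. At least 3 of 11 Kupffer cell markers were above 0 in 12 small-chip, 8 medium-chip and 0 large-chip cells, where 0 of 80 allows a share of up to 3.75%. At least 3 of 12 endothelial markers were above 0 in 6, 3 and 28 cells of the small, medium and large chips, and no cell met this for lymphocytes. The part of spike-ins, detection or other cell types in the chip differences was not tested.

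Hsd17b13 was detected in most cells, over a wide range of levels. Its deposited value ran from 0 over a median of 17.8 to 11081 in the small chip, from 0 over 12.8 to 17087 in the medium chip, and from 0 over 264 to 2413 in the large chip. It was above 0 in 84.6% of small-chip cells (33 of 39, Clopper-Pearson 95% interval 69.5% to 94.1%), in 83.3% of medium-chip cells (25 of 30, interval 65.3% to 94.4%) and in 98.8% of large-chip cells (79 of 80, at least 93.2% by its interval). These intervals cover counting error only. The large-chip range lay within those of the small and medium chips, whose highest cells were higher. In spike-poor cells, the medians were 685, 1328 and 893 in the small, medium and large chips, so the low medians of the small and medium chips lay in their spike-rich cells, whose median was 8.90 on both. The mean was 776 ± 2266 in the small chip (SD, n = 39 cells), 1080 ± 3247 in the medium chip (n = 30) and 662 ± 699 in the large chip (n = 80). Medium-chip cell 18 held 52.8% of that chip's sum, and small-chip cell 36 held 36.6% of its chip's sum.

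Hsd17b11, the neighbouring dehydrogenase gene, was above 0 in fewer cells of every chip. Its value ran from 0 over a median of 0 to 130 in the small chip, from 0 over 4.11 to 492 in the medium chip, and from 0 over 22.8 to 375 in the large chip. It was above 0 in 19 of 39, 21 of 30 and 74 of 80 cells in that order of chips. No small-chip or large-chip cell had Hsd17b11 above 0 without Hsd17b13, and 4 medium-chip cells did.

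Of the perilipin genes, Plin2 was above 0 in most cells of every chip. Plin5 was so in the large chip when all cells were counted, and in every chip among spike-poor cells. Plin2 ran from 0 over a median of 40.3 to 1093 in the small chip, from 0 over 48.7 to 2271 in the medium chip, and from 0 over 677 to 3954 in the large chip, and it was above 0 in 33, 24 and 79 cells. Plin5, which links droplets to mitochondria, was at 0 in most cells of the small and medium chips, with highest values of 356 and 1034, and ran from 0 over 2.61 to 135 in the large chip. It was above 0 in 20.5% of small-chip cells (8 of 39, interval 9.30% to 36.5%), in 20.0% of medium-chip cells (6 of 30, 7.71% to 38.6%) and in 62.5% of large-chip cells (50 of 80, 50.96% to 73.1%). In spike-poor cells these shares were 58.3% (7 of 12), 57.1% (4 of 7) and 70.3% (45 of 64) by rising trap size. Medium-chip cell 2 alone held 90.2% of that chip's Plin5 sum. Cideb ran from 0 over 17.6 to 2023 in the small chip, from 0 over 11.8 to 1031 in the medium chip, and from 0 over 470 to 1762 in the large chip, with 31, 23 and 75 cells above 0. With all cells counted the large chip had the highest medians of Plin2, Plin5 and Cideb, and the chips overlapped in each. In spike-poor cells the highest medians of Plin2 and Cideb were in the medium chip. Those medians, by rising trap size, were 158, 890 and 751 for Plin2, 602, 857 and 502 for Cideb, and 0.95, 1.13 and 3.595 for Plin5.

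The genes of the lipase and its inhibitor were at 0 in many cells of the small and medium chips when all cells were counted. Pnpla2 ran from 0 over 4.96 to 1685 in the small chip, from 0 over 0 to 296 in the medium chip, and from 0 over 8.11 to 207 in the large chip. G0s2 ran from 0 over 0 to 1402, from 0 over 0 to 157 and from 0 over 17.7 to 469 in the small, medium and large chips. In spike-poor cells Pnpla2 was above 0 in 10 of 12, 7 of 7 and 60 of 64 cells by rising trap size, with medians of 25.2, 31.1 and 8.44. There G0s2 was above 0 in 9, 5 and 57 cells, with medians of 14.8, 26.98 and 20.985. Both were above 0 together, with all cells counted, in 10 of 39 small-chip cells, 6 of 30 medium-chip cells and 56 of 80 large-chip cells. Small-chip cell 1 held 61.8% of that chip's Pnpla2 sum and small-chip cell 36 held 59.2% of its G0s2 sum.

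**Figure D1:**
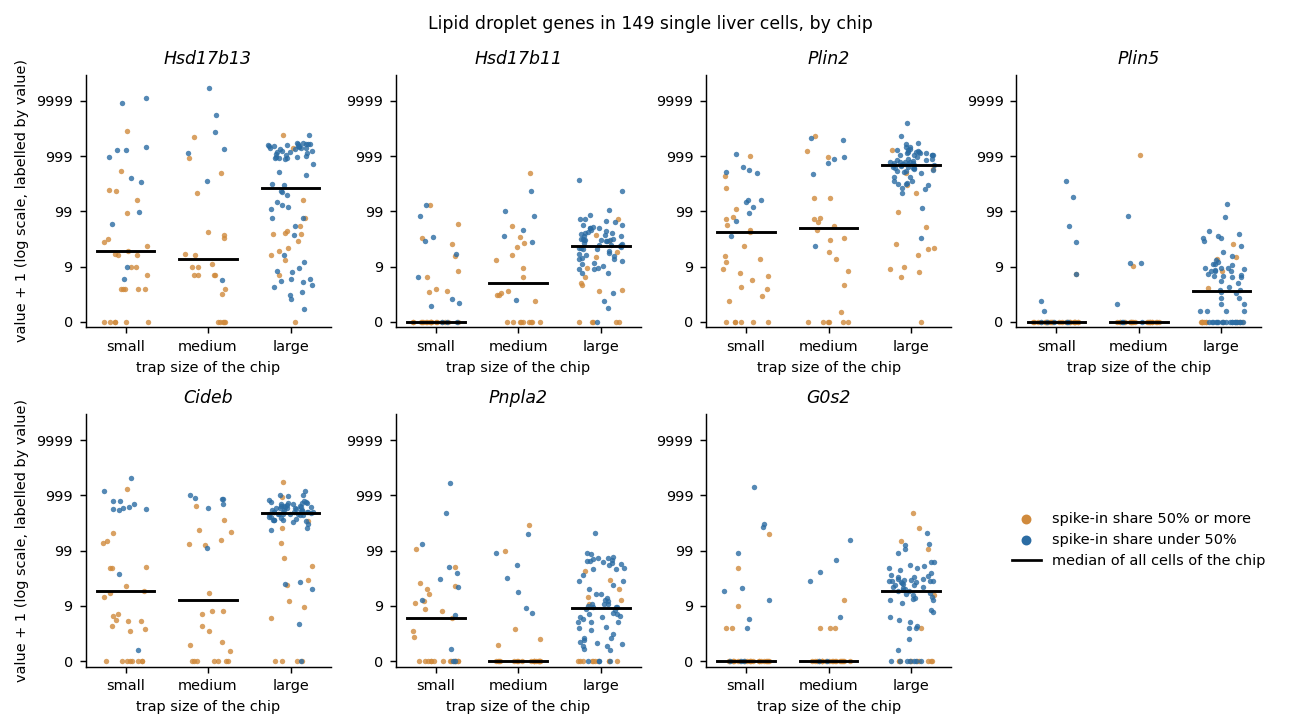
Deposited values of the 7 genes in 149 cells (y axis, value + 1 on a log scale, labelled by value) by trap size of the chip (x axis), with spike-rich cells in orange, the others in blue and a black line at the median of all cells of a chip. The large-chip cells crowd together for Plin2 and Cideb, spread over several orders of magnitude for Hsd17b13, and most of the cells at 0 are spike-rich.

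Values were also taken per kilobase of each gene's longest coding transcript, so that genes can be compared. The large-chip means were then 388 ± 409 for Hsd17b13, 381 ± 315 for Plin2 and 379 ± 262 for Cideb (SD, n = 80 cells). They were 41.003 ± 76.5 for G0s2, 14.8 ± 22.5 for Hsd17b11, 8.15 ± 12.4 for Pnpla2 and 4.49 ± 9.55 for Plin5. Cideb and G0s2 differed by more than either SD, and no other neighbours in this order did. On the deposited scale, the large-chip means of the top 3 genes ranked above 96.0% to 97.5% of the 8813 genes that were above 0 in at least 20% of cells, the genes counted as tested below; all 7 droplet genes are among them. The SD over the mean in the large chip was 1.06 for Hsd17b13, 0.827 for Plin2, 0.690 for Cideb, 1.52 for Hsd17b11 and for Pnpla2, 1.87 for G0s2 and 2.13 for Plin5, against a median of 2.14 over all tested genes. The tested genes were not matched for level. Their median large-chip mean was 23.4, against 662, 720 and 460 for Hsd17b13, Plin2 and Cideb.

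Cideb and Plin2 were the most even of the 7 genes in the largest class of large-chip cells. The summed values of the large chip fell into separate classes, and 57 cells with sums under 3000000 had spike-in shares of 1.24% to 6.69%. In those 57 cells Cideb ran from 239 over a median of 507 to 1018 and Plin2 from 217 over 742 to 1713, with an SD over the mean of 0.303 for Cideb and 0.427 for Plin2. In the same cells Hsd17b13 ran from 0.73 over 913 to 1734, with an SD over the mean of 0.868. The other 7 spike-poor large-chip cells had sums of 5171764 to 5628710, shares of 28.6% to 40.99%, and Cideb values from 0 over 24.3 to 1177. All 5 of the 64 cells with Cideb under 100 were among these 7, and their part in the spread of Cideb was not tested beyond leaving them out.

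To place cells along the lobule, a landmark score was used that holds no droplet gene. For each cell, z-scores within its chip were averaged over 6 pericentral genes (Cyp2e1, Cyp1a2, Glul, Gulo, Oat and Slc1a2), and the average over 6 periportal genes was subtracted (Cyp2f2, Hal, Sds, Pck1, Ass1 and Asl). With each landmark left out of its own score, Spearman's rho of Glul was 0.13, -0.11 and 0.49 in the small, medium and large chips. Gulo was at -0.096, -0.014 and 0.65, and Cyp2e1 at 0.45, 0.093 and 0.79. Other pericentral landmarks were positive and periportal ones negative in every chip. In spike-poor medium-chip cells Slc1a2 (-0.61) and Asl (0.21) had the opposite sign. Positions in the 2 smaller chips are thus less sure. Hsd17b13 was lower toward the score's pericentral side in every chip. Its Spearman's rho with the score, where a negative value means higher toward the periportal side, was -0.41 in the small chip (39 cells), -0.52 in the medium chip (30) and -0.80 in the large chip (80), with a mean of -0.58 ± 0.20 (SD over 3 chips). In spike-poor cells it was -0.80 (12 cells), -0.46 (7) and -0.85 (64). Of the 8813 tested genes, 2 had a lower rho than Hsd17b13 in the large chip, the periportal landmarks Hal (-0.87) and Cyp2f2 (-0.83). All rho values are descriptions over cells that share 1 mouse, a chip, the authors' normalisation and differences in the number of genes detected.

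Plin2 had the same direction, with a rho of -0.037, -0.57 and -0.51 in the small, medium and large chips and -0.32, -0.71 and -0.62 in spike-poor cells. As Pearson's r on the log2(value + 1) scale the large-chip value of Plin2 was -0.15. In the large chip 102 of the 8813 genes had a lower rho than Plin2. Cideb was at -0.10, -0.49 and -0.17 in all cells, but at -0.32, 0.18 and -0.22 in spike-poor cells, with the sign turned in the medium chip. Hsd17b11 was at 0.089, -0.41 and -0.13, and in the large chip 2381 genes had a lower rho than Hsd17b11. Plin5 was at -0.37, -0.20 and -0.0095, Pnpla2 at -0.066, -0.26 and -0.089, and G0s2 at -0.25, -0.31 and -0.029. In the large chip, with the most cells and the most genes above 0, Hsd17b13 and Plin2 thus had rho values beyond 0.5 in size, against values within 0.2 of 0 for the other 5.

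A gene was called graded when rho had 1 sign in all 3 chips and a mean of at least 0.2 in size. By that rule 3 of the 7 genes were graded periportal, Hsd17b13, Plin2 and Cideb, where 16.5% of all tested genes were, and 0 were graded pericentral, where 0.613% were. In spike-poor cells the 3 periportal genes were Hsd17b13, Plin2 and G0s2, against 10.7% of all genes, and 0 were pericentral, against 6.04%. The median of the mean rho was -0.20 over the 7 genes and -0.10 over all tested genes. The rho of G0s2 in those cells was -0.063, -0.68 and -0.025, so its mean rested on the 7 cells of the medium chip. With the number of genes above 0 held constant, 1 of the 7 was graded periportal, Hsd17b13, at a mean of -0.53, and with Cyp2e1 and Cyp2f2 as the only landmarks it was again Hsd17b13 alone, at -0.51. Plin2 was not graded in these because its small-chip rho was 0.031 and 0.11, though its means were -0.32 and -0.24. In the small and medium chips Hsd17b13 went with the number of genes above 0 (rho 0.60 and 0.54), and in the large chip it did not (-0.0069); the part of detection in the 2 smaller chips was not tested otherwise.

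Both sides of the score showed the gradient of Hsd17b13 in the large chip, where its rho was 0.76 with Cyp2f2, 0.69 with Hal and -0.69 with Cyp2e1. In the small and medium chips it went with the periportal landmark Cyp2f2 (0.45 and 0.59) but hardly with the pericentral Cyp2e1 (-0.11 and -0.0057).

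**Figure D2:**
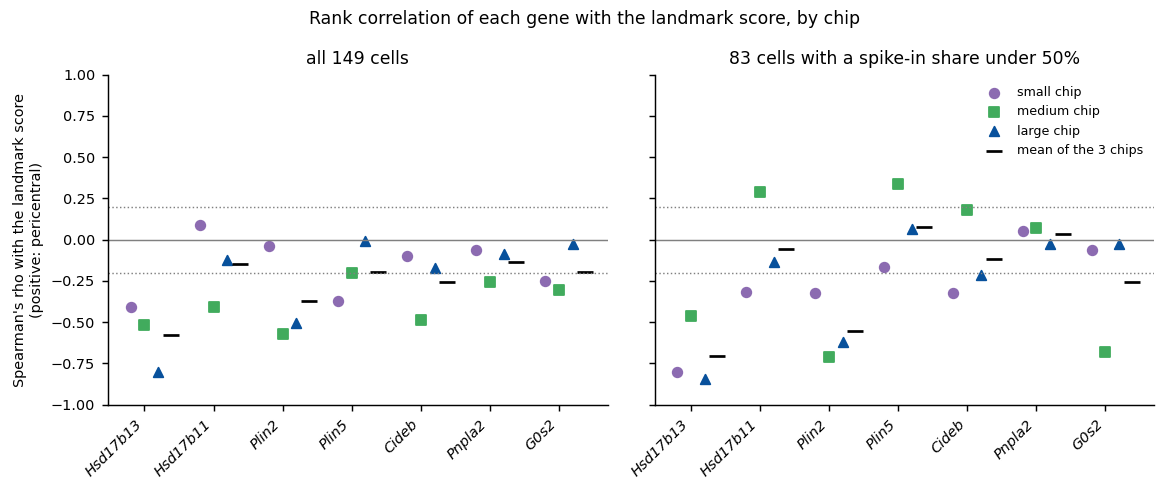
Spearman's rho of each gene with the landmark score (y axis, positive is pericentral) in the small, medium and large chip, for all 149 cells (left) and the 83 spike-poor cells (right); dotted lines mark 0.2 in size and dashes the mean of the 3 chips. Hsd17b13, Plin2 and G0s2 stay below 0 in every chip in both panels, while Hsd17b11, Plin5, Cideb and Pnpla2 take both signs among chips on the right.

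At the ends of the score the difference in Hsd17b13 was large. In the pericentral end, the 16 large-chip cells of highest score, Hsd17b13 ran from 0.73 over a median of 4.96 to 108, against 306 over 1389 to 2413 in the periportal end, the 16 cells of lowest score. The ends did not overlap, which held with the periportal end higher for 0.216% of all tested genes and with the pericentral end higher for 0.0567%. Landmarks that set the ends, among them Cyp2f2 and Cyp2e1, are counted in these shares. The pericentral mean was 18.9 ± 31.5, against a periportal mean of 1356 ± 446 (SD, n = 16 cells each), a log2 ratio of -6.09 (pericentral over periportal, pseudocount 1). All 32 cells had spike-in shares under 50%, with medians of 2.39% and 7861 genes above 0 in the pericentral cells, against 4.03% and 7324 genes in the periportal cells.

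Plin2 ran from 31.6 over 518 to 1254 at the pericentral end, against 606 over 1148 to 3954 at the periportal end. The ends overlapped, with means of 538 ± 307 and 1263 ± 769 and a log2 ratio of -1.23. Hsd17b11 ran from 0 over 23.4 to 61.7 at the pericentral end, against 1.34 over 33.9 to 236 at the periportal end, and its log2 ratio of -0.98 was -0.46 among cells with sums under 3000000. The 2-fold limit was thus passed by Hsd17b13 and Plin2 toward the periportal end, 2 of 7 genes where 22.8% of all tested genes passed it, and by 0 toward the pericentral end, where 14.3% did. For Plin2 this limit was missed with each cell rescaled to 1000000 (-0.99) and in cells with sums under 3000000 (-0.91). The log2 ratio was -0.40 for Cideb, -0.60 for Pnpla2, 0.55 for G0s2 (-0.42 with each cell rescaled) and 0.84 for Plin5, against a median of -0.27 over all tested genes. The ends overlapped in all 4, and the pericentral Plin5 mean of 13.1 held 1 cell at 135, with medians of 4.76 in pericentral and 2.61 in periportal cells.

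**Figure D3:**
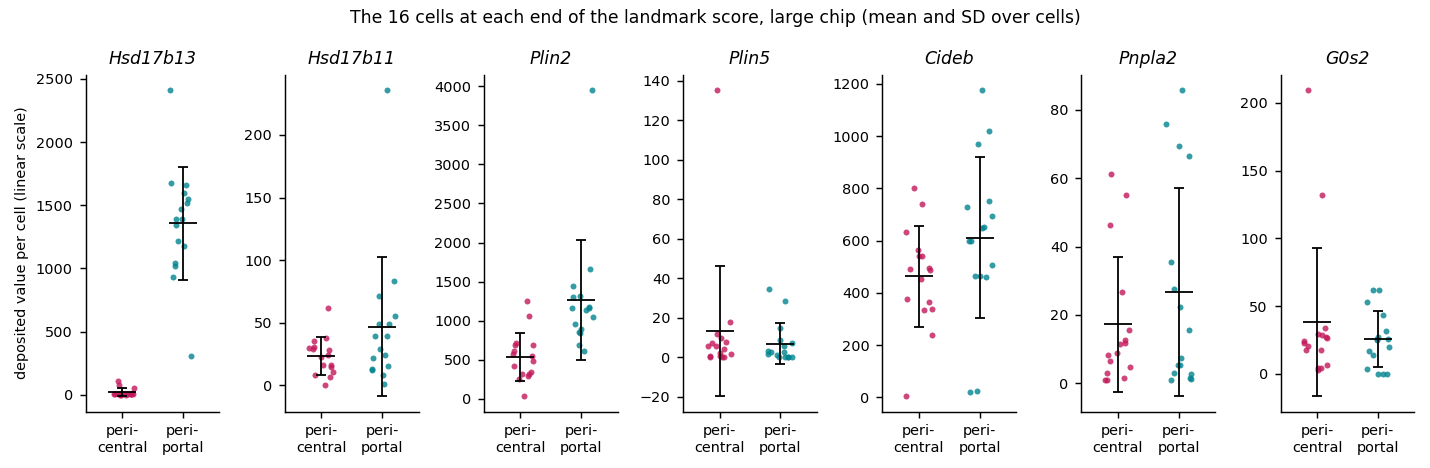
Deposited value per cell (y axis, linear scale, 1 scale per gene) in the large chip's 16 pericentral-end and 16 periportal-end cells by landmark score, with the mean and SD over cells as bars. Only for Hsd17b13 are the ends apart, at up to 108 and from 306.

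Summed hepatocyte markers had a median of 96077 at the pericentral end, against 179660 at the periportal end. At least 3 of 8 bile duct markers were above 0 in 6 of 16 pericentral and 15 of 16 periportal cells, and their median summed value was 13.1 in pericentral and 105 in periportal cells. Sox9 and Tstd1 differed most in this, both with a median of 0 in pericentral cells, against 64.3 for Sox9 and 29.8 for Tstd1 in periportal cells, while the defining markers Epcam and Krt19 were at 0 in all 16 pericentral cells and in 15 of 16 periportal cells. The summed median was 7.81 in pericentral and 1.40 in periportal cells for endothelial markers, 5.98 and 20.55 for stellate cell markers, and 247.5 and 521 for adipocyte markers. The 28 large-chip cells with at least 3 endothelial markers had a median Hsd17b13 of 125, against 789 in the other large-chip cells. For bile duct, stellate and adipocyte markers this went the other way. By the same rule the medians were 1018 against 38.6 for bile duct (49 cells) and 1139 against 222 for stellate markers (9 cells). They were 1439 against 228 for adipocyte markers (4 cells). The part of these markers in the differences was not tested.

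Along the score, cells with high Hsd17b13 came first and cells with low Hsd17b13 last. The 64 spike-poor large-chip cells were ranked from periportal to pericentral, with the last cell at 500 or more at rank 36 and the first under 100 at rank 45. Of the first 36 cells 35 had values of 500 or more, the exception at 306, and of the last 20 cells 19 were under 100, the exception at 108. These stretches were set by Hsd17b13 itself, with limits chosen after its values were seen, so its levels within them and the width of the 8 ranks between are a description. In the first, middle and last stretch the landmark Cyp2f2 had medians of 4970, 436 and 5.70, and Cyp2e1 had medians of 19.5, 2729 and 15360. Plin2 had medians of 988, 699 and 518 in the same stretches, and Hsd17b11 had medians of 24.8, 28.9 and 26.3.

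Over 5 bins of the score computed in these cells alone, from periportal to pericentral, mean Hsd17b13 was 1370, 1323, 943, 86.4 and 17.9. Mean Plin2 was 1306, 995, 894, 446 and 594, so its lowest bin was the fourth and not the last. Mean Cideb was 582, 567, 508, 474 and 451, a decline smaller than the SD within any bin (168 to 325). The means of Hsd17b11, Plin5, Pnpla2 and G0s2 changed direction between bins.

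**Figure D4:**
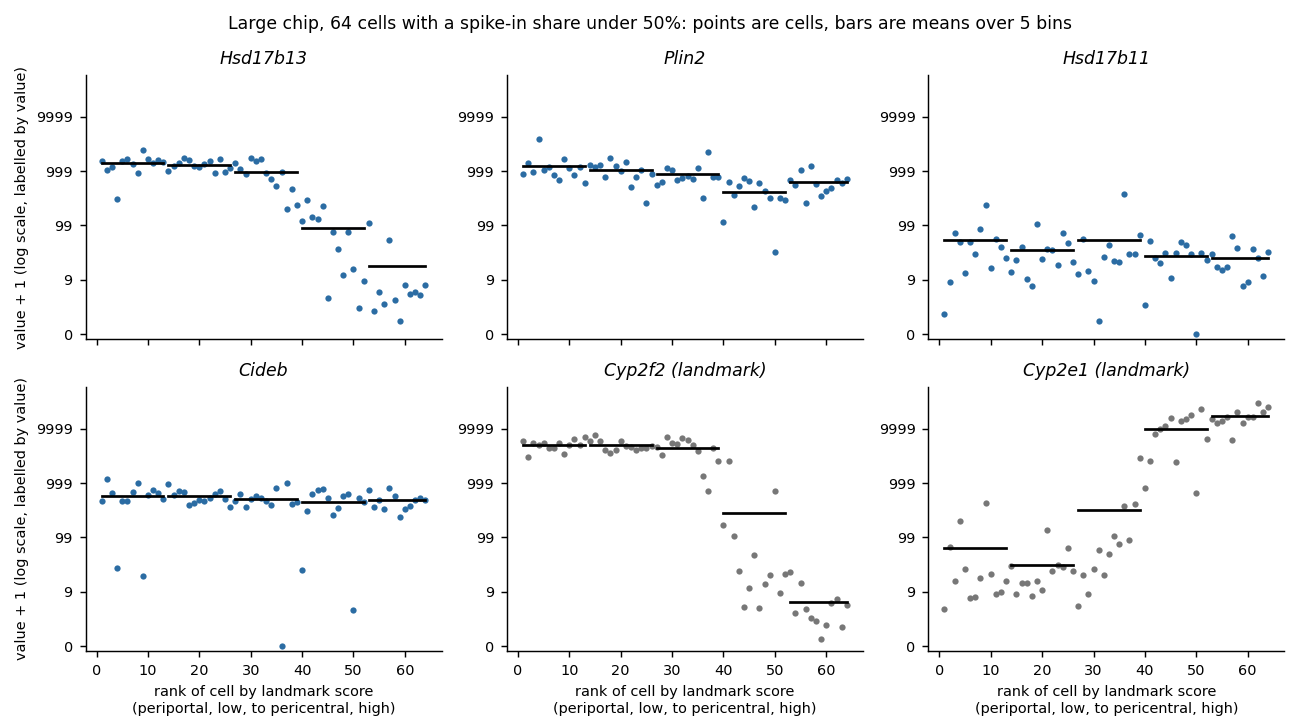
Values of 4 droplet genes and 2 landmark genes (y axis, value + 1 on a log scale, labelled by value) in 64 spike-poor large-chip cells. They are ranked by the landmark score computed over all large-chip cells (x axis, periportal to pericentral). Points are cells and bars are means over 5 bins. The bins of the text use the score computed in these 64 cells alone, so some cells fall in other bins. Bin means of Hsd17b13 are far higher in the first 3 bins than in the last 2, Cyp2f2 is likewise lower and Cyp2e1 higher toward the pericentral side, and the Cideb bin means differ by less than the SD within a bin.

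The columns of the deposited table run in an order whose making is not described in the labels, and the table's name mentions Wavecrest, a method that orders cells. The landmark score followed that order with a rho of 0.82, 0.91 and 0.94 in the small, medium and large chips. Hsd17b13 was lower in later columns, with a rho of -0.56, -0.44 and -0.82, and with -0.90 in the 64 spike-poor large-chip cells. In the large chip its mean over 5 bins of columns was 1456, 1073, 646, 117 and 18.7. Plin2 was at -0.13, -0.54 and -0.43, with bin means of 919, 1165, 582, 370 and 562 in the large chip. Toward the earlier columns 4 of the 7 genes were graded, Hsd17b13, Plin2, Cideb and G0s2, where 15.4% of all tested genes were, and 0 were graded toward the later ones, where 0.692% were. In spike-poor cells 3 were graded toward the earlier columns, against 12.6% of all genes, and 0 toward the later ones, against 5.5%. Whether any of the 7 genes entered the ordering is not given in the sources used here, so the order is not independent support for the score.

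Pairs of the 7 genes were positive more often with spike-rich cells included than without them. In all 21 pairs rho was positive in the small and medium chips, with medians of 0.38 and 0.44, and 20 of 21 were positive in the large chip, with a median of 0.20. In spike-poor cells, 12, 7 and 17 of the 21 pairs were positive in the small, medium and large chips. The closest pair in the large chip was Hsd17b13 with Plin2, at 0.49 over 80 cells and 0.55 over the 64 spike-poor cells. With the landmark score held constant the partial rho was 0.15 and 0.063. Plin2 with Cideb was at 0.45 and 0.30, with partial values of 0.43 and 0.21. The neighbours Hsd17b13 and Hsd17b11 were at 0.20 and 0.087, and the lipase Pnpla2 with its inhibitor G0s2 at 0.089 and -0.064.

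**Figure D5:**
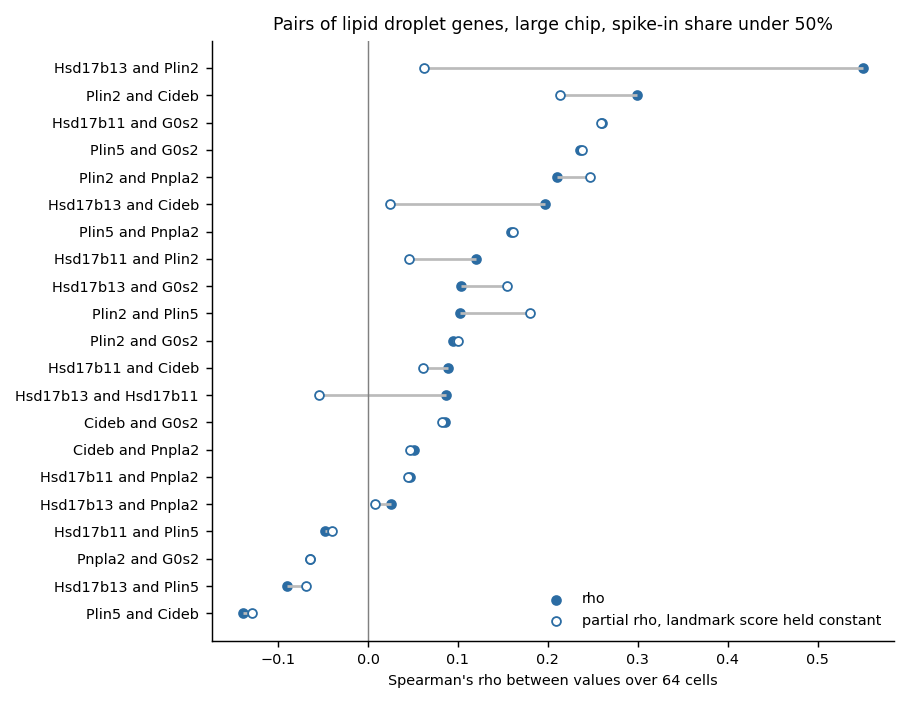
Spearman's rho between the values of each pair of genes (filled points) and partial rho with the landmark score held constant (open points), x axis, over 64 spike-poor large-chip cells. Hsd17b13 with Plin2 has the highest rho, 0.55, and its partial value is 0.063.

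The genes most like Hsd17b13 were sought among 4406 tested genes with a mean above the median. By the mean rho over the 3 chips they were Ttr, Alb and Apoa1, which encode secreted plasma proteins, with Ccl9 and Cyp2f2, all between 0.60 and 0.61. In the large chip (80 cells) they were Uox, the urate oxidase gene (0.76), Cyp2f2 (0.76), Hrsp12 (0.75), Etnppl (0.74) and Mup20 (0.72). For Plin2 they were Mdh1 (0.66), Sdhd (0.63) and Tat (0.63) over the chips, and Itih2 (0.74) and Uox (0.68) in the large chip. For Cideb the first was Gsta4 (0.61) over the chips and Esd (0.61) in the large chip, for Hsd17b11 Xiap (0.58) and Golgb1 (0.62), and for G0s2 Gsta4 (0.56) and Sacm1l (0.47). Plin5 had Mrpl38 first on both measures (0.55 and 0.57), and Pnpla2 had Rps26 (0.58 and 0.57).

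Other droplet genes gave a frame for these values. Of the perilipin and CIDE relatives, Plin1 was at 0 in all 149 cells, which allows a share of up to 2.01% of cells, Plin4 was above 0 in 13 cells, Cidea in 1 and Cidec in 25. Plin3, the remaining coat protein, was tested and not graded, with a mean rho of -0.097 ± 0.13 (SD over 3 chips). Of 10 tested lipolysis genes 4 were graded periportal, against 16.5% of all tested genes, with mean rho values of -0.42 for Aadac, -0.32 for Abhd5, the activator of the Pnpla2 lipase, and -0.27 for Faf2. In spike-poor cells 1 of the 10 was, Aadac (-0.35), against 10.7% of all genes, while Abhd5 was at -0.19 and Faf2 at -0.15 with its sign turned in the medium chip (0.36). The mean of Abhd5 was 26.1 ± 19.9 in pericentral-end cells, against 72.5 ± 82.6 in periportal-end cells (SD, n = 16 cells each).

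Of 13 tested genes of triglyceride synthesis and droplet assembly 2 were graded periportal, Lpin1 (-0.32) and Agpat2 (-0.22), where 16.5% of all tested genes were. Graded pericentral was 1, where 0.613% were. That gene was Fitm1, which encodes a protein of droplet formation, with a rho of 0.021, 0.31 and 0.65 in the small, medium and large chips. Its mean was 59.1 ± 50.1 in pericentral-end cells, against 0.37 ± 1.49 in periportal-end cells, the opposite of Hsd17b13. In spike-poor cells Fitm1 was again graded pericentral, and the 2 periportal genes were Acsl3 (-0.22) and Lpin2 (-0.27) instead of Lpin1 and Agpat2. Of all genes there 6.04% were pericentral and 10.7% periportal. The spike-poor rho of Lpin1 was -0.48, 0.36 and -0.58 by rising trap size. It thus missed the grade by its sign in the 7 medium-chip cells, where Agpat2 also turned (0.61). Acsl3 was at -0.065 in the spike-poor large-chip cells. Of 11 tested genes of the droplet surface and lipoprotein loading 4 were graded periportal, against 16.5% of all tested genes, and 0 pericentral, against 0.613%. Apob (-0.39), Mettl7b (-0.36) and Aup1 (-0.26) led the 4. In spike-poor cells 3 were graded periportal, with Mettl7b and Aup1 among them and Apob not, and 1 was graded pericentral. Apob was at -0.66, 0.18 and -0.52 there by rising trap size, so it missed the grade by its sign in the 7 medium-chip cells.

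Among 6 other tested 17-beta-hydroxysteroid dehydrogenase genes 2 were graded periportal, against 16.5% of all tested genes. They were Hsd17b6 (-0.54) and Hsd17b12 (-0.25), while Hsd17b4 (-0.16) was not graded. The mean of Hsd17b6 was 0.58 ± 1.67 in pericentral-end cells, against 348 ± 359 in periportal-end cells. The grade of Hsd17b12 came from the small and medium chips, since its rho was -0.0071 in the large chip, and its spike-poor rho was 0.25 in the medium and 0.052 in the large chip. Its mean was 235 ± 399 in pericentral-end cells, against 144 ± 84.5 in periportal-end cells. Over all 41 tested genes of the 5 lists, 12 were graded periportal and 1 pericentral, where 16.5% and 0.613% of all tested genes were. In spike-poor cells 7 of the 41 were periportal and 2 pericentral, where 10.7% and 6.04% were. The median of the mean rho over the 41 was -0.16, against -0.10 over all tested genes.

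Between chips the means of the 7 genes moved in both directions, and single cells carried much of them. The log2 ratio of small over large chip was 0.23 for Hsd17b13, -1.11 for Hsd17b11, -2.15 for Plin2, 0.79 for Plin5, -0.77 for Cideb, 1.66 for Pnpla2 and 0.75 for G0s2, against a median of -0.72 over all tested genes. With each cell rescaled to 1000000 that median was -0.37, Hsd17b13 was at -0.042, Hsd17b11 at -0.38 and G0s2 at -0.36, the signs of Hsd17b13 and G0s2 having turned. At least 2-fold higher in the small chip was 1 of 7, where 12.8% of all genes were, and 2 were at least 2-fold lower, where 41.9% were. The log2 ratio of medium over large chip was 0.70 for Hsd17b13, 0.26 for Hsd17b11, -0.80 for Plin2, 1.98 for Plin5, -0.99 for Cideb, 0.30 for Pnpla2 and -1.66 for G0s2, with a median of -0.59 over all genes. There 1 of 7 was at least 2-fold higher, where 12.7% of all genes were, and 1 was lower, where 37.5% were. In spike-poor cells Hsd17b13 was at 1.51 for small and 2.41 for medium over large, G0s2 at 2.55 and 0.53, Cideb at 0.44 and 0.48, and Plin2 at -1.32 and 0.27. The signs of Cideb in both ratios, and of G0s2 and Plin2 in the medium one, thus turned from those of all cells. There 4 of 7 genes were at least 2-fold higher in the small chip, where 25% of all genes were, and 1 was lower, where 26.7% were. In the medium chip 2 were at least 2-fold higher, where 17.3% were, and 0 lower, where 24.8% were. Trap size, spike-in share and the chip itself cannot be told apart in these ratios.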

How the data were processed

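Single-cell RNA-seq of 149 liver cells was deposited as 1 table. Per the submitters' processing notes, CASAVA 1.8.2, Bowtie 0.12.9, RSEM 1.2.3 and the build mm10 were used by the authors. The table's name mentions SCnorm, a normalisation method, and Wavecrest. The deposited values are a normalised signal per gene and cell made by the authors, with spike-ins included; how spike-ins and chips entered the normalisation and which annotation was used are not given in the sources used here. Read depth is unknown. Summed values per cell had medians of 5539884, 5678144 and 1817208 in the small, medium and large chips, and no columns were identical.

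Spearman's rho was computed within each chip, means were compared as log2 ratios with a pseudocount of 1, and genes above 0 in at least 20% of cells were counted as tested. Shares of cells carry Clopper-Pearson 95% intervals, and where 0 cells met a condition the limit given is 3 cells of the total. Groups were not tested, since all cells come from 1 mouse. No doublet caller was run. Values per kilobase used the length of each gene's longest coding transcript in GENCODE M21. The exon bases shared by Cideb and Nop9 were counted on the union of exons. Named were the 7 genes, the 12 landmarks, up to 3 genes per list with the largest mean rho in size, and the genes most like each of the 7, of which some are not reported here. The gene lists matched 50 of 51 symbols, 1 of them by an older symbol. The genes, lists and landmarks were chosen with earlier results of these data known, and the lists therefore support nothing by themselves. Methods were tested on simulated data. Other pseudocounts, scalings, correlation measures, landmarks, cells and chips were tried. The work used scipy 1.17.1, matplotlib 3.10.9, pandas 2.3.3 and numpy 2.4.6 under Python 3.11.15.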

Additional observations from a re-analysis of the deposited data

How the results depend on the processing

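Depth is unknown in these normalised values, cells of 1 mouse allow no estimate between animals, and the small and medium chips held 12 and 7 spike-poor cells (spike-in share under 50%). The count of the 7 genes under each setting and the restriction to cells with sums under 3000000 were chosen after seeing the data. Hsd17b13 kept its direction under every alternative run on the landmark score, with a mean rho between -0.71 and -0.46, and its log2 ratio of pericentral over periportal end lay between -6.30 and -5.56. The mean rho of Plin2 also kept its sign, between -0.55 and -0.23, but its small-chip value was 0.11 with Cyp2e1 and Cyp2f2 alone and 0.031 with the number of genes held constant, and its large-chip value was -0.15 as Pearson's r. Of all genes, 532 were graded pericentral in spike-poor cells and 144 when genes above 0 in at least 1 cell were counted, against 54. Graded periportal were 943 after rescaling to the sum of the mouse genes and 944 in spike-poor cells, against 1453. Of the 7 genes, 1 was graded periportal with Cyp2e1 and Cyp2f2 alone as landmarks, 1 with the number of genes above 0 held constant, and 5 on leaving out the large chip, against 3; the causes were not tested. The log2 ratio of medium over large chip of G0s2 was 0.53 in spike-poor cells, with the sign turned, and its end ratio was -0.42 after rescaling. Of 259 values of single genes under alternatives, 217 stayed within a limit (the SD over chips for rho, 1.5-fold for ratios, the interval for shares), 41 moved further and 1 turned from a called value. No paired analysis was possible because the numbers in the titles count cells within a chip, cells of different chips are not pairs, and no test was run.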
